A study of Mus musculus with 2 samples.

Results

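*Cd44*, *Cd69*, *Ly6a*, *Cd5*, *Cd6*, *Cd2*, *Cd48*, *Cd24a*, *Selplg* and *Icam1* encode surface proteins by which the activation and adhesion of T cells are graded. They were taken by symbol from the count tables of control and RV-Cre Th17 cells, and all 10 were found, each as 1 of the 23282 gene rows. Naïve CD4 T cells came from the spleens of *Fak* fl/fl mice, whose gene for focal adhesion kinase is flanked by loxP sites, and the methods of the study give the donors of such cells as female mice of 6 to 8 weeks. The control cells received the empty retrovirus MIEG3 and the Fak KO cells received RV-Cre, a retrovirus that delivers Cre recombinase. Both were activated with plate-bound anti-CD3ε at 10 μg/ml and anti-CD28 at 5 μg/ml and then kept for 3 days with 50 ng/ml IL-6, 1 ng/ml TGFβ1, 1 ng/ml TNF-α, 2 ng/ml IL-1β and antibodies to IFNγ and IL-4 at 5 μg/ml each. By the study's methods the transduced cells were then sorted by GFP. The control sample is labelled WT under genotype but *Fak* fl/fl with control virus in its title, which was followed here. Recombination took place only in culture after activation, and the presence of Cre and the loss of *Fak* cannot be told apart, because no library of Cre-expressing cells without the floxed allele was analysed here. The number of mice behind each library is not given in the sources used here.

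Each condition had 1 library, so no replicate check exists for any difference given here, and no p-value was computed. Counts were scaled by the TMM method and compared as log2(normalized count + 1). A ratio is the RV-Cre value over the control value, unless it is given as reads of 1 gene per read of another. The brackets after a ratio hold its exact Clopper-Pearson 95% interval, taken from the split of reads between the libraries. For reads of 1 gene per read of another, the interval was taken from the split between the genes within 1 library. These intervals cover counting error only, since each condition had 1 library and the scaling factors were taken as fixed. The counts carry no molecular identifiers, so copies of 1 molecule count as separate reads and the intervals may be too narrow. In bulk RNA, fewer cells that express a gene and less RNA of it per cell cannot be told apart. The libraries were made with a QuantSeq 3′ kit, in which reads come from transcript ends.

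The markers fall into a few molecular groups. CD44 is the receptor for hyaluronan, PSGL-1 (encoded by *Selplg*) is the main ligand of P-selectin on leukocytes, and ICAM-1 is a ligand of the integrin LFA-1. CD2 and CD48 are paired immunoglobulin-like proteins that hold T cells against other leukocytes, while CD5 and CD6 are scavenger receptor family members that sit near the T cell receptor and restrain its signals. CD69 appears early after stimulation and keeps the egress receptor S1P1 off the surface. Sca-1 (encoded by *Ly6a*) and CD24 (encoded by *Cd24a*) are small proteins held by a glycosylphosphatidylinositol (GPI) anchor, as is CD48. On CD4 T cells CD44, CD69 and Sca-1 rise upon activation, and CD44 stays high on memory cells.

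In the RV-Cre library *Cd24a*, *Cd5*, *Ly6a* and *Cd44* had lower normalized counts than in the control library, at ratios between 0.384 and 0.576. *Cd2* and *Selplg* had higher counts, at ratios of 1.91 and 1.70. *Cd69*, *Cd6*, *Cd48* and *Icam1* lay between 0.797 and 1.01. The markers therefore did not move as 1 block: the lowest and the highest were 2.32 apart on the log2 scale, a 4.98-fold difference between their ratios.

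**Figure D1:**
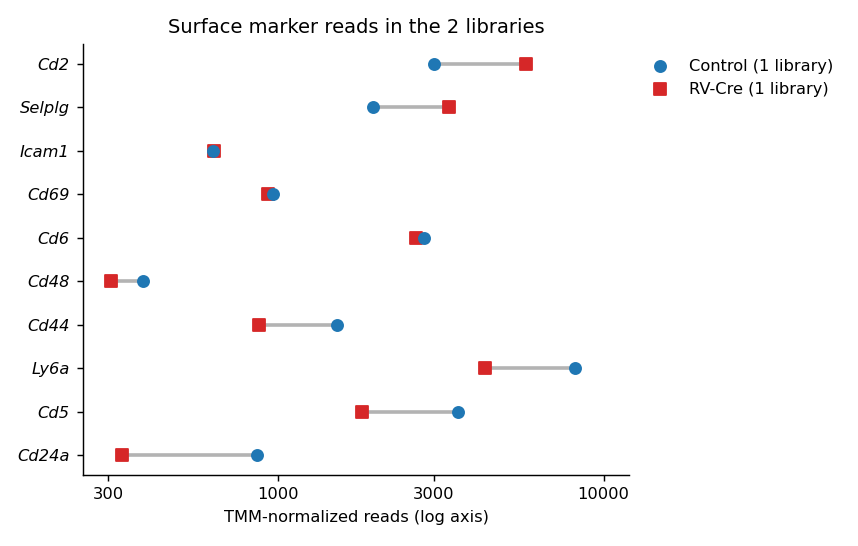
TMM-normalized reads of the 10 surface marker genes in the control and the RV-Cre library, on a log axis, with 1 point per library and a line joining the points of a gene. The points of *Cd69*, *Cd6* and *Icam1* nearly coincide, whereas *Cd2* runs from 3008 to 5754 and *Cd24a* from 861 to 330.

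The control library held 13799264 counted reads and the RV-Cre library 12305010. Reads of *Rn45s*, a ribosomal RNA precursor, took 8.50% of the control library and 14.6% of the RV-Cre library. *Ptk2*, the gene of focal adhesion kinase, had 110 control reads and 31 RV-Cre reads, at a ratio of 0.318 [0.206 to 0.477]. All 12 T cell identity genes were past the expression minimum, and 3 of them, *Ptprc* (log2 ratio 1.33), *Cd3d* (1.20) and *Cd3e* (1.16), were at least 2-fold higher in the RV-Cre library. The T cell identity genes together made up 2959 CPM (reads scaled to the library total) of the control library and 4705 CPM of the RV-Cre library. Much of this sum was *Ptprc*, with 593 CPM in the control and 1477 CPM in the RV-Cre library. *Cd4* (108 and 109 CPM, log2 ratio 0.02) and *Lat* (log2 ratio -0.05) were near level. Of the 12 genes, 11 had log2 ratios above 0 and 1 below. Whether T cells alone transcribe the genes of this list was not tested. Markers of other cells had fewer reads: the 8 B cell genes found summed to 64 and 124 reads, the 10 myeloid genes to 872 and 1942 reads, the 8 dendritic cell genes to 197 and 180 reads, the 9 CD8 and NK cell genes to 1043 and 1031 reads, and the 6 erythroid genes to 39 and 187 reads. Among the defining ones, *Pax5* had 0 reads in both libraries, *Lyz2* had 22 and 7, *Adgre1* 0 and 8, *Csf1r* 16 and 110, and *Cd8a* 322 and 580. *Cd44*, *Cd24a*, *Cd48*, *Selplg* and *Icam1* are also transcribed by B or myeloid cells, and the part of such cells in their counts was not tested.

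Upstream sequence is shown for *Cd44* and *Cd5*, which had lower counts in RV-Cre cells, and for *Icam1*, which had equal ones, so that the letters before lower and level genes can be read side by side. The RefSeq promoter table of GRCm38.p6 held *Cd44*, *Cd5*, *Cd48* and *Icam1*, that is, 4 of the 10 markers, and the *Cd48* window is not printed because it falls within annotated transcripts. Each run below ends just before transcribed bases, is read 5′ to 3′ on the strand of the gene, and carries in capitals the matches to the searched motifs. *Icam1* lies at chr9:21015690-21015939 on the plus strand, *Cd44* at chr2:102901670-102901915 on the minus strand and *Cd5* at chr19:10739027-10739224 on the minus strand.
Icam1: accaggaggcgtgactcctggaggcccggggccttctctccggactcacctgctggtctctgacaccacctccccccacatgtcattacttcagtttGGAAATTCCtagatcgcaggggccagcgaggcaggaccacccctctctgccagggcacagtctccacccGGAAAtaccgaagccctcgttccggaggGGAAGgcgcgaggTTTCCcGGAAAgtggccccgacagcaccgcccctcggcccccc
Cd44: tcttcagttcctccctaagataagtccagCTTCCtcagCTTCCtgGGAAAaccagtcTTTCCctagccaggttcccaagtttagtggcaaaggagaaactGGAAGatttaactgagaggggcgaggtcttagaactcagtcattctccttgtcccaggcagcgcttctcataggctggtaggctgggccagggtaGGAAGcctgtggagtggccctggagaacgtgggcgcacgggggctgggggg
Cd5: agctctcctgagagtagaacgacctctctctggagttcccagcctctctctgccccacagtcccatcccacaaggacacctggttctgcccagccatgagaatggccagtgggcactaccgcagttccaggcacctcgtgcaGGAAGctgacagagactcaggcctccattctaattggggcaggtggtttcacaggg

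The motifs were GGAAA, the core bound by NFAT factors, GGAAG, the core bound by ETS factors, ACCACA, the core bound by Runx factors, TGANTCA, the AP-1 element, TATAAA, the TATA box, and the κB consensus. They were searched on both strands of the 250 bases before 32851 RefSeq starts of 27025 genes. Of these windows 55.6% held GGAAA, 64.1% held GGAAG, 14% held ACCACA, 6.75% held TGANTCA, 12.4% held TATAAA and 7.25% held the κB consensus. *Icam1* had 4 matches to GGAAA and 1 to GGAAG, *Cd44* had 2 and 4, *Cd5* had 0 and 2, 1 of which is in the transcribed bases left out above, and *Cd48* had 1 match to GGAAA and 1 to ACCACA. None of the 4 windows held the AP-1 element, the TATA box or the κB consensus. The run GGAAATTCC in the *Icam1* window, from 153 to 145 bases before the start, was added to the search after the window had been read, and it overlaps a match to GGAAA. It has the letters known from the RelA-bound κB element of the human *ICAM1* gene, and 0.286% of all windows held it. A match is a run of letters and no measurement of binding.

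*Cd24a* showed the lowest ratio of the 10 markers. It encodes a heavily glycosylated GPI-anchored protein that binds Siglec receptors and P-selectin. It had 915 control reads and 311 RV-Cre reads, which is 861 and 330 normalized reads, and was 2.61-fold lower in RV-Cre cells, with a counting interval of 2.29 to 2.97. The gene lies at chr10:43578284-43584265 on the plus strand of GRCm38, and 17 of the 902 runs of 50 bases in its transcript ends (1.88%) also occur in *Gm6212*, and how many of its reads fall on them was not measured.

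*Ly6a* encodes Sca-1, a member of the Ly6 family of small GPI-anchored proteins that lies at chr15:74994877-74998031 on the minus strand. Its 8683 control reads stood against 4066 RV-Cre reads, 8174 and 4319 normalized reads. The ratio was 0.528 [0.509 to 0.549], or 1.89-fold lower. Its transcript ends share 66 of 812 runs of 50 bases (8.13%) with *Ly6c1*, *Ly6c2*, *Ly6i* or *I830127L07Rik*, so its count is uncertain. How many of its reads fall on those runs was not measured.

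The other Ly6 genes did not all follow *Ly6a*. *Ly6c1* had 1573 control reads and 368 RV-Cre reads (log2 ratio -1.92) and *Ly6c2* had 217 and 21 (log2 ratio -3.14). Runs shared between the ends of *Ly6c1* and *Ly6c2* were not searched, so whether their counts are separate was not tested. *Ly6e*, another GPI-anchored member, had 2615 and 3069 reads, a log2 ratio of 0.41. Thus 3.32 reads of *Ly6a* were counted per read of *Ly6e* in control cells and 1.32 in RV-Cre cells, and no scaling factor enters these values. Apart from *Ly6a*, 8 family members were past the minimum, of which 2 lay 2-fold or more above the control (*Ly6d*, with 26 and 55 reads, and *Cd59a*, with 0 and 15 reads) and 2 lay 2-fold or more below it (*Ly6c1* and *Ly6c2*). Against a limit of 3 reads for the count of 0, *Cd59a* was at least 5.64-fold higher. The median log2 ratio of these 8 genes was -0.20, beside -0.01 over all 12112 genes past the minimum. Of those 12112 genes, 14.2% were higher and 12.3% lower by 2-fold or more, which serves as the background for each partner list.

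*Cd5* and *Cd6*, neighbouring genes on the minus strand of chromosome 19 (chr19:10717116-10739002 and chr19:10789341-10830058), differed from each other. *Cd5* had 3800 control reads and 1696 RV-Cre reads, 3577 and 1802 normalized reads, and its ratio was 0.504 [0.475 to 0.533], a 1.99-fold lower value. *Cd6* had 2981 and 2502 reads, 2806 and 2658 normalized reads, and its ratio was 0.947 [0.898 to 0.999]. The counting interval of *Cd6* excluded 1 narrowly at 95% and held it at 99%. Per read of *Cd6* there were 1.27 reads of *Cd5* in the control library [1.21 to 1.34] and 0.678 in the RV-Cre library [0.637 to 0.721].

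Known ligands and signalling partners of CD5 and CD6 were in part higher. *Alcam*, the gene of the CD6 ligand, had 255 and 252 reads (log2 ratio 0.16) and *Cd72*, whose product was described as a CD5 ligand, had 1002 and 1272 (log2 ratio 0.52). *Cblb*, a ubiquitin ligase that dampens T cell receptor signals, had 88 and 198 reads (log2 ratio 1.33), and *Tsc22d3*, the glucocorticoid-induced leucine zipper gene, had 98 and 481 (log2 ratio 2.46). These last were the members of the list at least 2-fold higher, 2 of the 12 genes past the minimum when *Cd5* and *Cd6* are left out. None of the 12 was at least 2-fold lower, and their median log2 ratio was 0.51.

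*Cd44* encodes the hyaluronan receptor and spans chr2:102811141-102901665 on the minus strand. It had 1605 control reads and 819 RV-Cre reads, 1511 and 870 normalized reads. The ratio was 0.576 [0.529 to 0.627], 1.74-fold lower. Of the other genes on the list of CD44 partners and hyaluronan metabolism, 13 were past the minimum, 3 of them higher and 2 lower by 2-fold or more, with a median log2 ratio of 0.17. The lower ones were *Hmmr*, the receptor for hyaluronan-mediated motility and also a mitotic spindle gene (469 and 74 reads, log2 ratio -2.47), and *Hyal2*, a hyaluronidase (193 and 78 reads, log2 ratio -1.12). The largest positive ratios belonged to *Ank3* (4 and 79 reads, log2 ratio 4.16) and *Has3*, a hyaluronan synthase (9 and 24 reads, log2 ratio 1.48). *Ezr* and *Msn*, which encode the ezrin and moesin linkers between CD44 and actin, had log2 ratios of 0.69 and 0.70, and *Rdx*, the gene of the related linker radixin, had -0.32 (4711 and 3338 reads). *Spp1*, the gene of the CD44 ligand osteopontin, had 28 reads in both libraries.

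*Selplg*, at chr5:113818536-113832644 on the minus strand, went the other way from *Cd44*. It had 2082 control reads and 3141 RV-Cre reads, 1960 and 3337 normalized reads. Its ratio was 1.70 [1.61 to 1.80]. The reads of *Selplg* per read of *Cd44* were 1.30 [1.21 to 1.39] in the control library and 3.84 [3.55 to 4.15] in the RV-Cre library, a 2.96-fold difference.

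PSGL-1 binds P-selectin only after sulfation and glycosylation, and the 12 genes for these steps past the minimum were divided, with 6 log2 ratios above 0 and 6 below. *Tpst1*, a tyrosylprotein sulfotransferase gene, had 476 and 110 reads (log2 ratio -1.93), *Fut7*, a fucosyltransferase gene, had 69 and 36 (log2 ratio -0.75), and *Gcnt1*, the gene of the core 2 branching enzyme, had 62 and 35 (log2 ratio -0.64). The sialyltransferase genes *St3gal6* (15 and 28 reads, log2 ratio 1.02) and *St3gal1* (322 and 474 reads, 0.73) lay on the other side. *Tpst1* was the 1 gene at least 2-fold lower among the 17 past the minimum besides *Selplg*, and 3 were at least 2-fold higher. Among the last was *Sele*, the E-selectin gene, with 8 and 81 reads (log2 ratio 3.35). The median log2 ratio of the 17 was 0.20.

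*Cd2* had the highest ratio of the 10 markers. It encodes the T cell receptor for CD48 and lies at chr3:101275899-101287939 on the minus strand. Its 3195 control reads stood against 5417 RV-Cre reads, 3008 and 5754 normalized reads, at a ratio of 1.91 [1.83 to 2.00]. *Cd48*, at chr1:171682009-171705258 on the plus strand, encodes the GPI-anchored ligand of CD2 in the mouse and had 408 and 288 reads, 384 and 306 normalized reads. The ratio of *Cd48* was 0.797 [0.683 to 0.929]. Receptor and ligand gene lay on opposite sides of 1, except with scaling to *Gapdh*, where *Cd48* had a log2 ratio of 0.09. The reads of *Cd2* per read of *Cd48* were 7.83 [7.06 to 8.70] and 18.8 [16.7 to 21.2].

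CD2 and CD48 are related to the SLAM family, and a list of this family together with adaptors and signalling partners of CD2 was mixed. Besides *Cd2* and *Cd48*, 12 genes of the whole list were past the minimum, with a median log2 ratio of 0.12. Of these, 1 was higher and 3 were lower by 2-fold or more. *Slamf6*, a receptor gene of T and B cells, had 53 and 258 reads (log2 ratio 2.43). *Slamf7* (301 and 106 reads, log2 ratio -1.32), *Slamf8* (24 and 9 reads, -1.16) and *Sh2d1a*, the gene of the SLAM adaptor SAP (183 and 77 reads, -1.07), were lower. Between these lay *Slamf1* at a log2 ratio of 0.67, *Cd84* at 0.63, *Ly9* at 0.52 and *Cd2ap*, which encodes an adaptor of the CD2 tail, at -0.45.

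*Icam1* had nearly equal normalized counts. It lies at chr9:21015985-21028817 on the plus strand and had 668 control reads and 596 RV-Cre reads, 629 and 633 normalized reads, a ratio of 1.01 [0.900 to 1.13]. The whole of its transcript end also belongs, on the other strand, to the antisense gene *Gm47079*. Whether strand was used in counting is not given in the sources used here, so without strand the reads of the genes cannot be told apart and the count of *Icam1* is uncertain.

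The receptor of ICAM-1 on T cells, LFA-1, is a pair of *Itgal* and *Itgb2* products. *Itgal* had 4003 and 1887 reads (log2 ratio -0.91) and *Itgb2* had 2776 and 2400 (log2 ratio -0.04). The reads of *Icam1* per read of *Itgal* were 0.167 in control cells and 0.316 in RV-Cre cells. *Icam2*, another LFA-1 ligand gene, had a log2 ratio of 0.58. Besides *Icam1*, 17 genes of the ICAM and LFA-1 list were past the minimum, with a median log2 ratio of -0.04; 3 were higher and 3 lower by 2-fold or more. Highest were *Rasgrp2*, an activator of Rap1 (128 and 379 reads, log2 ratio 1.73), and *Skap1*, an adaptor for integrin activation (424 and 1030 reads, 1.45). Lowest were *Itgax* (27 reads and 1 read, log2 ratio -3.68) and *Icam4* (17 reads and 1 read, -3.04), with *Rap1b* at -1.01.

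*Cd69*, at chr6:129267325-129275436 on the minus strand, had 1025 control reads and 872 RV-Cre reads, 965 and 926 normalized reads. The ratio was 0.960 [0.876 to 1.05], and the interval held 1. *S1pr1*, whose product CD69 holds inside the cell, differed by far more, with 502 and 1792 reads (log2 ratio 2.01). *S1pr4*, another sphingosine 1-phosphate receptor gene, had 305 and 928 reads (log2 ratio 1.78), whereas *Klrk1* and *Klrd1*, lectin receptor genes of the same chromosomal complex as *Cd69*, had 41 and 9 reads (-1.91) and 240 and 57 reads (-1.88). The 11 genes of this list without *Cd69* had a median log2 ratio of -0.28, with 3 higher and 2 lower by 2-fold or more. Per read of *Cd69*, *Cd44* had 1.57 reads [1.45 to 1.70] in the control library and 0.939 [0.853 to 1.03] in the RV-Cre library.

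Among the partners of CD24, *Siglecg*, the gene of its Siglec receptor in the mouse, had 9 and 33 reads (log2 ratio 1.93) and *Hmgb1*, which encodes a danger signal bound by CD24, had 1437 and 585 (log2 ratio -1.12). *Lyn*, a kinase gene of B and myeloid cells, had 26 and 88 reads (log2 ratio 1.89) and *Sgpp1*, a sphingosine 1-phosphate phosphatase gene that the list also held, had 1028 and 336 (log2 ratio -1.44). Of the 5 partners past the minimum, 2 were higher and 2 lower by 2-fold or more. In sum, B cell markers went from 4.64 to 10.1 CPM and myeloid markers from 63.2 to 158 CPM. Most of the myeloid reads were those of *Ctss*, with 684 of 872 in the control library and 1392 of 1942 in the RV-Cre library. The single markers past the minimum went both ways. Of the B cell markers 4 had log2 ratios above 0 and 1 below, and of the myeloid markers 6 above and 2 below. The part of B and myeloid cells in the values of the CD24 partners was not tested.

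**Figure D2:**
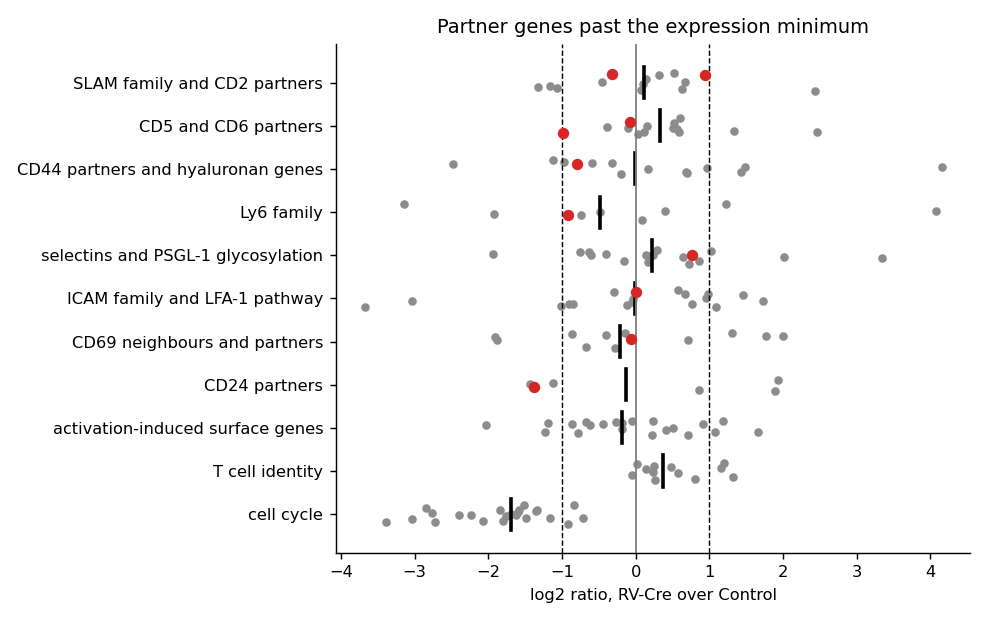
Log2 ratios (RV-Cre over control) of partner genes past the expression minimum, 1 row per list, with each gene as a grey point, the 10 surface markers in red, the list median (markers included) as a black bar and the 2-fold thresholds as dashed lines. The 8 partner lists hold points on both sides of 0, with medians from -0.48 for the Ly6 family to 0.33 for the CD5 and CD6 partners, whereas all 23 cell cycle genes lie below 0.

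**Figure D3:**
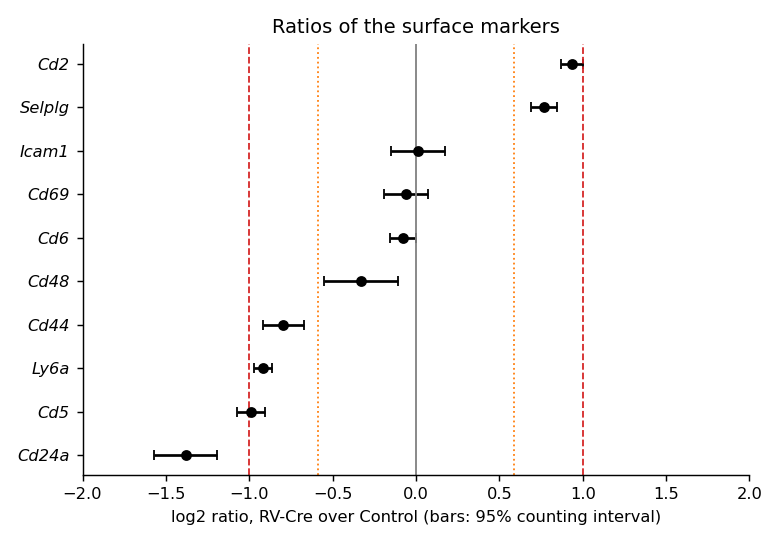
Log2 ratio (RV-Cre over control) of the 10 surface marker genes with exact 95% counting intervals as bars and the 2-fold thresholds as lines. The bar of *Cd24a* lies wholly below -1, and no bar lies wholly above 1.

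All 10 markers passed the expression minimum, a log2 value of at least 4 (15 normalized reads) in at least 1 library. Of the 10, 0 were at least 2-fold higher in RV-Cre cells, while 1, *Cd24a*, was at least 2-fold lower, a call that ends with scaling to *Gapdh* (log2 ratio -0.96). Over all 12112 genes past the minimum, 14.2% were higher and 12.3% lower by this measure. At 1.5-fold, 2 markers (*Cd2* and *Selplg*) were higher and 4 (*Cd44*, *Ly6a*, *Cd5* and *Cd24a*) were lower, against 23.5% and 22.9% of all genes. The share of markers at least 1.5-fold higher, 2 of 10, was close to that background, and the share at least 1.5-fold lower, 4 of 10, was above it. Among genes of like mean count, 11.8% were higher and 18.5% lower by this measure, below the shares of the markers. No test was made on these 10 genes.

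Low counts scatter more, so the markers were also set beside the 5197 genes with a mean log2 value in their own range, 8.43 to 12.54. In that range 3.5% of genes were higher and 7.5% lower by 2-fold or more, while 11.8% were higher and 18.5% lower by 1.5-fold or more. The median log2 ratio of the 10 markers was -0.20, of the genes in the same range -0.08, and of all genes past the minimum -0.01. Below 0 were 7 of the 10 markers, 55.0% of the genes in range and 50.4% of all genes. *Cd24a* was past the 2-fold threshold at -1.38, and just short of it were *Cd5* at -0.99 and *Ly6a* at -0.92 on the lower side and *Cd2* at 0.94 on the higher side.

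Single markers stood at moderate places among all genes. A lower log2 ratio was found for 7.15% of the genes past the minimum than for *Cd24a*, for 12.5% than for *Cd5*, for 13.9% than for *Ly6a* and for 16.7% than for *Cd44*. A higher one was found for 15.2% than for *Cd2* and for 18.7% than for *Selplg*. Counting error as measured by the intervals was small for these genes: the 95% interval lay below 1 for 6 markers, above 1 for 2 and held 1 for 2, *Cd69* and *Icam1*.

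**Figure D4:**
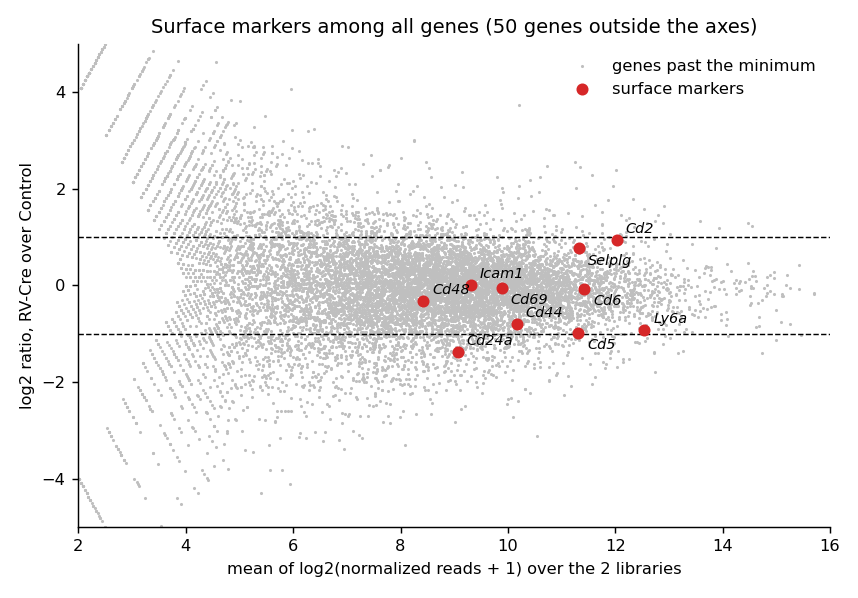
Log2 ratio (RV-Cre over control) against mean log2 normalized count for the genes past the expression minimum, in grey, with the 10 surface markers labelled by name and the 2-fold thresholds drawn, leaving 50 genes outside the axes. The markers lie at mean values of 8.43 to 12.54, where the grey cloud is narrower than at low counts.

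Ratios between markers do not depend on the scaling of the libraries. For *Cd2* and *Cd5*, both T cell surface genes, 0.841 reads of *Cd2* per read of *Cd5* [0.802 to 0.882] in the control library stood against 3.19 [3.02 to 3.37] in the RV-Cre library, a 3.80-fold difference. The pair was chosen with the values known.

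The sign of a marker's log2 ratio depended on the scaling only for those near 0. Over scaling by library total, by the total less *Rn45s*, by DESeq2 size factors, by quantile normalization, to *Gapdh*, to the T cell identity genes, and over other pseudocounts, *Cd24a* ranged from -1.91 to -0.96, *Cd5* from -1.52 to -0.57, *Ly6a* from -1.45 to -0.50 and *Cd44* from -1.33 to -0.38. *Cd2* ranged from 0.40 to 1.35 and *Selplg* from 0.23 to 1.19. These 6 genes kept their direction in every one of these runs. *Cd69* (-0.59 to 0.36), *Cd6* (-0.61 to 0.34), *Cd48* (-0.86 to 0.09) and *Icam1* (-0.52 to 0.43) had values on both sides of 0. *Gapdh* scaling moved the median of all genes by 0.42 and T cell identity scaling by -0.53.

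**Figure D5:**
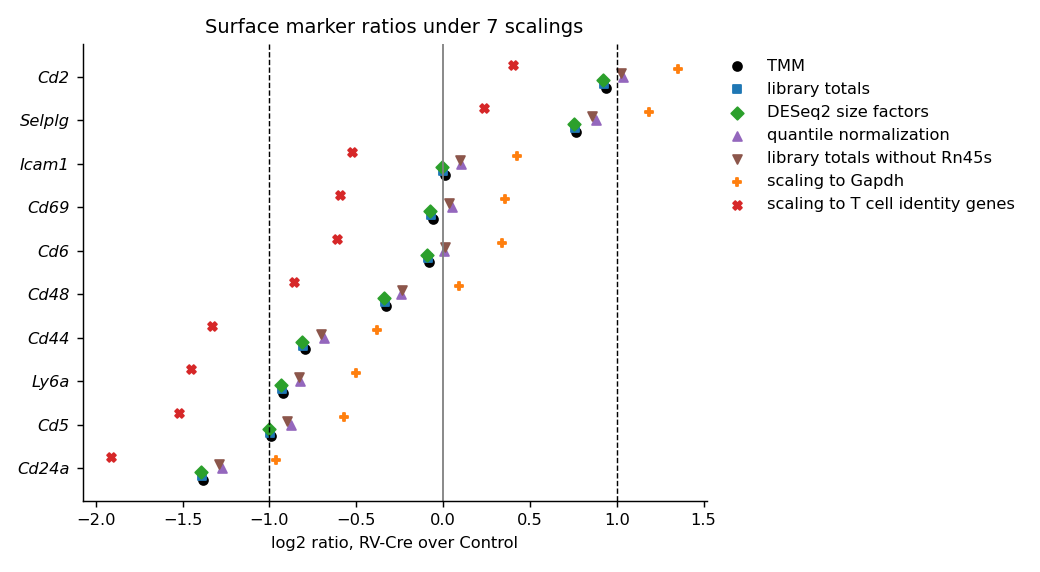
Log2 ratio (RV-Cre over control) of the 10 surface markers under each scaling, with a pseudocount of 1 and 1 point per setting. Dashed lines mark the 2-fold thresholds. *Cd24a*, *Cd5*, *Ly6a* and *Cd44* stay below 0, *Cd2* and *Selplg* stay above 0, and the other 4 have points on both sides.

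Cell cycle genes were lower in the RV-Cre library. *Mki67*, the Ki-67 proliferation antigen gene, had 1947 control reads and 495 RV-Cre reads (log2 ratio -1.80), and all 23 cell cycle genes had log2 ratios below 0, with 20 of them at least 2-fold lower and a median of -1.69. *Cd44*, *Ly6a*, *Cd5* and *Cd24a* were lower in the same library. The part of proliferation in their values was not tested.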

How the data were processed

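RNA of GFP-sorted Th17 cells was measured in 1 control and 1 RV-Cre library of 13799264 and 12305010 reads. The authors deposited raw counts of reads per gene symbol, without normalization. The submitters' processing notes name bcl2fastq 2.20.0.422, Bowtie2, bedtools and mm10, without roles. The counting annotation and the use of strand are not given in the sources used here. Of 23282 rows, 79 share a symbol with another row and were kept apart. Counts were scaled with TMM factors (size factors 1.06 and 0.941; edgeR 4.0.16, R 4.3.3) and compared as log2(normalized count + 1). Genes reaching a log2 value of 4 in either library were kept. Ratios of at least 2-fold were counted, and 1.5-fold was added after the data were seen. Intervals are exact Clopper-Pearson intervals (scipy 1.17.1) and cover counting error only.

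Alternatives were library totals, DESeq2 1.42.0 size factors, quantile normalization, totals without *Rn45s*, scaling to *Gapdh*, pseudocounts of 0.1 and 10, a log2 minimum of 6, fold thresholds of 1.5 and 3 and a 99% interval. Scaling to T cell identity genes was chosen after seeing the data. The markers and gene lists were chosen with earlier results of these data known. Named genes were all markers, *Ptk2*, a set of partner genes named whatever their values, and the 2 most extreme genes in each direction of each list. *Cd3e*, *Rap1b*, *Tfrc*, *Icos*, *St3gal1*, *St3gal6*, *Rdx*, *Relb*, *Rel*, *Nfkb2* and the single markers of other cell types were named after their values were seen. Some genes the rule names are not reported here. Gene positions and transcript ends came from GENCODE M21 (GRCm38) and promoters from RefSeq (GRCm38.p6).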

Additional observations from a re-analysis of the deposited data

How the results depend on the processing

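With 1 library per condition, precision is limited by counting error and by the lack of replicates, and no setting can show how cultures vary. No paired analysis was possible because neither condition had a replicate. Of 80 marker values recomputed under 8 scalings and pseudocounts, 50 moved by less than their counting interval, 26 moved beyond it and 4, of markers whose interval excluded 1, reversed. The last were the log2 ratios of *Cd6* with quantile normalization (0.00828), with library totals without *Rn45s* (0.0122) and with scaling to *Gapdh* (0.34), and of *Cd48* with scaling to *Gapdh* (0.0898). Counting also *Cd69* (3 settings) and *Icam1* (2 settings), whose intervals held 1, the sign differed in 9 values. The count of markers at least 2-fold higher, 0 as reported, was 1 with quantile normalization, 1 without *Rn45s*, 2 with *Gapdh* and 2 at 1.5-fold. The count at least 2-fold lower, 1 as reported, was 2 with DESeq2 size factors, 0 with *Gapdh*, 4 with T cell identity scaling, 4 at 1.5-fold and 0 at 3-fold. At 1.5-fold, the count of higher markers went from 2 to 0 with T cell identity scaling, and the count of lower markers went from 4 to 1 with *Gapdh* and to 7 with T cell identity scaling. A scaling factor or another fold threshold sets these shifts by construction, and for quantile normalization the cause was not tested. Of 160 list medians, 129 moved by less than a limit and 31 moved beyond it, a limit other than the counting interval. This limit was the standard deviation of the list's log2 ratios divided by the square root of its number of genes. It is wide for short lists of large spread. The myeloid median, 0.51 as reported, stayed within it at 0.0078 with T cell identity scaling.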

Other observations

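Since *Ly6a*, *Cd48* and *Cd24a* encode GPI-anchored proteins, the genes that build and attach the anchor were counted too. Of 27 past the minimum, 4 were higher and 2 lower in RV-Cre cells by 2-fold or more, and the median log2 ratio was 0.12. The shares over all genes past the minimum were 14.2% higher and 12.3% lower. *Pgap3*, which remodels the lipid of the anchor, had 32 and 118 reads (log2 ratio 2.02) and *Pigv*, a mannosyltransferase gene, had 55 and 142 (log2 ratio 1.52). *Pigp* had 245 and 83 reads (log2 ratio -1.38) and *Pigg* had 22 reads and 1 read (log2 ratio -3.40).

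Other surface genes were counted in the same way. Of 21 activation-induced genes past the minimum, 3 were higher and 3 lower by 2-fold or more, with a median log2 ratio of -0.18. The lower ones were the inhibitory receptor gene *Ctla4* (6530 and 1409 reads, log2 ratio -2.04), *Cd200* (753 and 283 reads, -1.23) and the transferrin receptor gene *Tfrc* (6363 and 2465 reads, -1.19). The higher ones were *Tnfrsf18*, the gene of the costimulatory receptor GITR (1884 and 5285 reads, 1.66), *Lag3* (35 and 72 reads, 1.19) and *Icos* (2526 and 4719 reads, 1.08). A further list was drawn up as constitutive T cell surface genes, and whether each of its genes is constitutive in these cells was not tested. Of its 24 genes past the minimum, 6 were higher and 2 lower by 2-fold or more, with a median of 0.41. The costimulatory receptor gene *Cd27* (583 and 1560 reads, log2 ratio 1.59) was among the higher ones, and *Crtam* (189 and 52 reads, -1.67) and *Cd160* (74 and 29 reads, -1.15) were lowest.

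Among 20 NF-κB subunit and early target genes, 0 were higher and 6 lower by 2-fold or more, with a median log2 ratio of -0.13. Over all genes past the minimum, 14.2% were higher and 12.3% lower by this measure, and no test was made on the list. *Ccl20*, a chemokine gene, had 88 and 4 reads (log2 ratio -4.00) and *Tnfaip3*, which encodes the feedback inhibitor A20, had 363 and 96 (log2 ratio -1.73). Highest were *Bcl3* (1851 and 3139 reads, log2 ratio 0.94) and *Nfkbiz* (627 and 1060 reads, 0.93), which encode atypical IκB proteins, and 10 of the 20 genes lay above 0. The subunit genes differed from each other. Below 0 lay *Relb* (1624 and 698 reads, log2 ratio -1.04), *Nfkb1* (2240 and 1087 reads, -0.87) and *Rel* (232 and 163 reads, -0.33). Above 0 lay *Nfkb2* (3637 and 3379 reads, log2 ratio 0.07) and *Rela* (1437 and 1486 reads, 0.22). *Icam1*, often used as an NF-κB target, had a ratio of 1.01. Its count is uncertain because its whole transcript end is shared with the antisense gene *Gm47079*. Its log2 ratio ranged from -0.52 to 0.43 over the scalings.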
